A study of Mus musculus with 24 samples.

Results

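Messenger RNA levels of 10 mouse genes of the NRF2 antioxidant response and of thiol redox metabolism (Nfe2l2, Hmox1, Nqo1, Gclc, Gclm, Srxn1, Txnrd1, Gsr, Txn1 and Prdx1) were measured after a serum shock in MMH-D3, an immortalized line of hepatocytes. The genes were taken by symbol, and they and the time windows used below were chosen with earlier results of these data known. Their counts and medians, set beside those of all genes, are thus a description. A probe set, the group of array probes that reports 1 transcript, was used where GEO's platform annotation gave it a member symbol and no other. That held for 19 of 45101 probe sets and for 9 of the 10 genes. A filter on low values, a log2 value of at least 5 on at least 6 of the 24 arrays, left 15 of the 19 probe sets and 8 genes, out of 9825 genes in the whole table. The 5 probe sets that carry the symbol Prdx1 all carry a second symbol as well, so Prdx1 has no value here. The only probe set of Nqo1 stood at 2.17 on all 24 arrays. That is the lowest value of the table, and it gives only an upper bound.

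All 24 samples were MMH-D3 cells of the same kind. They were differentiated at confluence for 14 days in growth medium with 2% DMSO and synchronized by a serum shock, in which a short rise in serum sets the clocks of cells in culture to 1 phase. RNA was collected every 2 h from 12 to 58 h after the shock, and each time point was hybridized to 1 Affymetrix array, with no replicate. No unshocked or otherwise untreated culture was among the samples, and the labels do not say whether the time points came from separate cultures.

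NRF2, the product of Nfe2l2, is a transcription factor that the adaptor KEAP1 hands to a ubiquitin ligase for destruction. Electrophiles and oxidants modify cysteines of KEAP1, NRF2 then escapes degradation, and with a small MAF partner it binds antioxidant response elements at its target genes. Its level is thus set largely at the protein, which arrays do not measure. Its targets serve 2 thiol systems of the cell. In the glutathione system, GCLC and GCLM make the rate-limiting step of synthesis and GSR returns oxidized glutathione to its reduced form. In the thioredoxin system, TXNRD1 reduces thioredoxin (TXN1), which in turn reduces peroxiredoxins such as PRDX1, and SRXN1 rescues peroxiredoxins that have been over-oxidized. HMOX1, which breaks down heme, and the quinone reductase NQO1 are the best known NRF2 targets outside the thiol systems. Among the members, Hmox1 is also known as a target of ATF4, the transcription factor of the amino acid and endoplasmic reticulum stress responses.

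Each array's median log2 value over the kept probe sets lay between 9.09 and 9.14 from 44 to 58 h and between 8.96 and 9.13 from 12 to 42 h, with the lowest at 40 h. The median correlation of an array with the other arrays was 0.9723 to 0.9901. All 8 measured hepatocyte markers, albumin and Hnf4a among them, were present with mean log2 values of 9.34 to 15.97, and over time 2 rose and 4 fell (median change -0.49), or 1 and 5 with the arrays centred on their median or quantile normalized. Their summed log2 level was 16.39 to 17.12 on the arrays from 36 to 58 h and 16.73 to 17.14 on those from 12 to 34 h. None of 5 endothelial and none of 9 fibroblast and stellate markers passed the filter. Of 7 macrophage markers, Cd14, Cd68 and Csf1r passed it, and 0 of the 3 changed past the threshold as deposited or centred and 1 fell after quantile normalization, while Ptprc, Adgre1, Lyz2 and Clec4f lay near the lowest value. In bulk RNA, fewer cells of a type and less RNA per cell cannot be told apart, and the part of the hepatocyte markers' change in the members' changes was not tested.

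Did the members drift with time after the shock? The change over 46 h was the linear term of a limma fit that also held a 24 h cosine and sine, with Benjamini-Hochberg adjustment over all 18526 kept probe sets and a threshold of 0.05. Of the 8 measured members, 2 rose (Hmox1 and Txnrd1) and 4 fell (Gsr, Srxn1, Gclm and Txn1), while Nfe2l2 and Gclc did not pass the test. Across all genes 26.3% rose and 16.4% fell. The members' median change was -0.14 on the log2 scale, against 0.07 for all genes. The separation into risers and fallers uses these same changes and is a description. With each array centred on its median, or after quantile normalization, the same counts of 2 and 4 were called, although the split over all kept probe sets was 4604 higher and 3087 lower as deposited, 3653 and 3952 with centring, and 3725 and 4045 with quantile normalization.

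**Figure D1:**
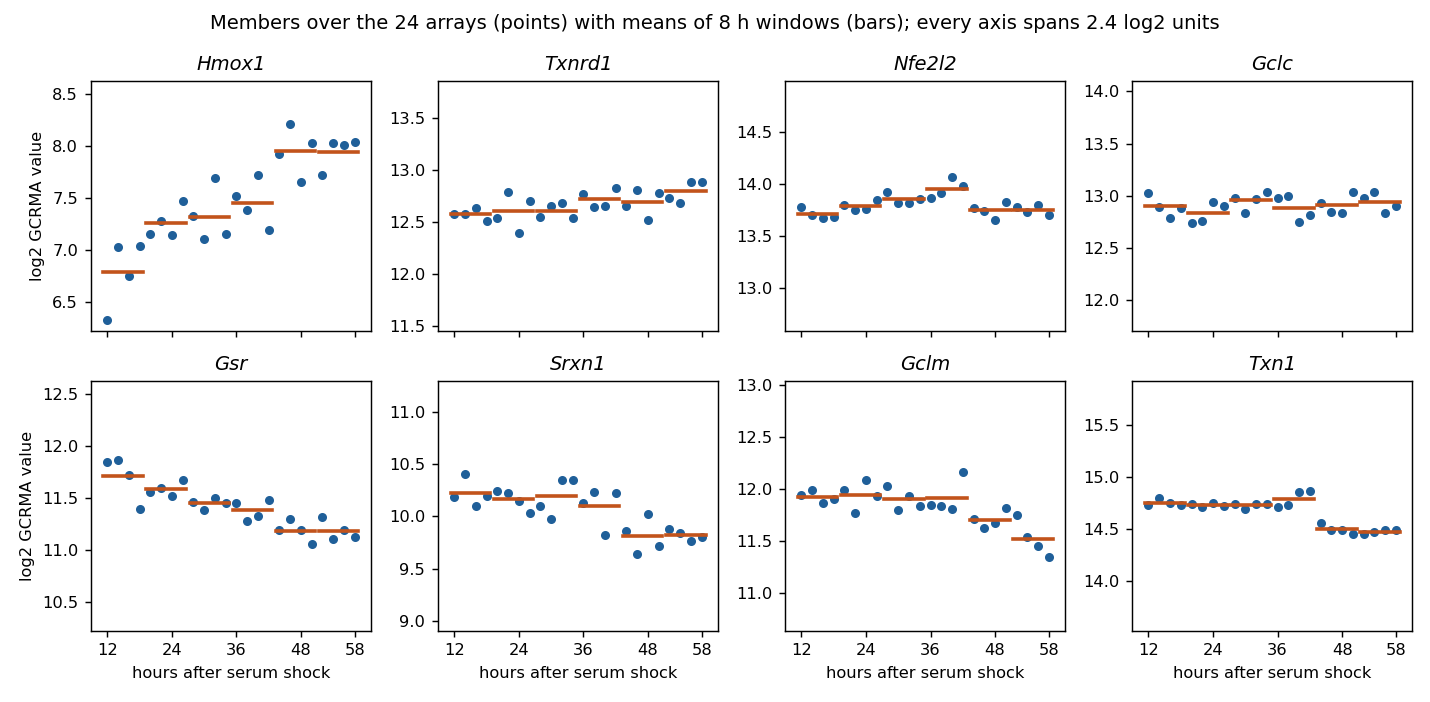
Log2 GCRMA value of each measured member (1 probe set per gene, y axis) on the 24 arrays against hours after serum shock (x axis). Points are arrays, horizontal bars are means of 4 consecutive arrays, and every y axis spans the same number of log2 units. Hmox1 climbs through the course, Gsr declines through it, Txn1 is level until 42 h and lower from 44 h, and Nfe2l2 climbs to 40 h and is lower from 44 h.

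Hmox1 had the larger rise of the 2 risers. Its change over 46 h was 1.30 ± 0.17 (log2, standard error), a fitted 2.46-fold rise with an adjusted p of 2.18e-06 by limma, and it exceeded the change of 97.3% of the genes. The 12 arrays from 36 to 58 h gave log2 values of 7.19, 7.82 and 8.21 (lowest, median and highest), against 6.32, 7.15 and 7.69 on the 12 arrays from 12 to 34 h. These ranges overlap, but arrays 24 h apart, which share their phase of any daily cycle, never did so in the other direction. The later array of the pair was the higher in 12 of 12 pairs, and the mean difference was 0.66 ± 0.09 (adjusted p = 0.000169, limma with the hour of day as a factor).

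The rise of Hmox1 came in stages. Means of 4 consecutive arrays were 6.78, 7.26, 7.31, 7.45, 7.95 and 7.95 from the first 8 h window (12 to 18 h) to the last (52 to 58 h). The step into the window of 44 to 50 h was 0.50 ± 0.16 (adjusted p = 0.0191, limma). This step was not called when the array of 42 h (adjusted p = 0.0663) or of 46 h (0.0748) was left out. The earlier gain, from the first to the second window, was of similar size at 0.48 ± 0.16 and just missed the threshold (adjusted p = 0.0505). Fitted on the arrays up to 42 h alone, the slope of Hmox1 was 1.23 per 46 h (adjusted p = 0.005), so the rise did not rest on the arrays from 44 h on.

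Txnrd1, the cytosolic selenoenzyme that reduces thioredoxin, rose by 0.27 ± 0.08 over 46 h (adjusted p = 0.00844, limma), a change above that of 70.1% of the genes. Its log2 values were 12.52, 12.75 and 12.88 (lowest, median and highest) from 36 to 58 h and 12.39, 12.57 and 12.78 from 12 to 34 h. The 2 ranges overlap over most of their length, yet the later array was the higher in 12 of 12 pairs, by 0.14 ± 0.03 on average (adjusted p = 0.00792). No window of Txnrd1 stood apart from the one before it, and the step into 44 to 50 h was -0.03 ± 0.08 (adjusted p = 0.796). The rise was called in 1 of the gene's 3 kept probe sets. The change was 0.20 ± 0.12 in the second by brightness (adjusted p = 0.187). The dimmest read 6.81 on 13 of the 24 arrays, so its change of 0.04 ± 0.07 says little about the transcript. Without the arrays from 44 to 58 h the fitted slope of Txnrd1 was 0.25 and was not called (adjusted p = 0.168).

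Gsr, glutathione reductase, fell by 0.65 ± 0.08 over 46 h, to a fitted 0.637 of its level at 12 h (adjusted p = 1.15e-06, limma), and only 4.6% of the genes had a change as low. Its log2 values were 11.05, 11.24 and 11.48 (lowest, median and highest) from 36 to 58 h, against 11.39, 11.54 and 11.87 from 12 to 34 h. The later array was the lower in all pairs but that of 42 h and 18 h, and the mean difference was -0.33 ± 0.05 (adjusted p = 0.000499). The fall was gradual, with window means of 11.71, 11.59, 11.45, 11.39, 11.18 and 11.18 from first to last. A second probe set fell by 0.76 ± 0.09 and was the lower in all 12 pairs. Gsr kept its fall on the arrays up to 42 h alone, with a slope of -0.65 per 46 h (adjusted p = 0.00287).

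Srxn1, sulfiredoxin, fell by 0.50 ± 0.11 over 46 h (adjusted p = 0.000922, limma). Its log2 values were 9.64, 9.85 and 10.23 (lowest, median and highest) from 36 to 58 h and 9.97, 10.19 and 10.41 from 12 to 34 h. Of the 12 pairs only that of 42 h and 18 h had the later array higher, and the mean difference was -0.28 ± 0.06 (adjusted p = 0.00321). Both of the gene's other kept probe sets fell as well, by 0.42 ± 0.09 and by 0.48 ± 0.12. The step from 36 to 42 h into 44 to 50 h measured -0.29 ± 0.10 (adjusted p = 0.0318). It was -0.37 ± 0.13 in the second probe set by brightness (adjusted p = 0.0325) and -0.15 ± 0.09 in the dimmest, where it was not called (adjusted p = 0.187). In the brightest it lost its call when any of the arrays of 36, 38, 42, 46 or 50 h was left out (adjusted p of 0.0578 to 0.114). Up to 42 h the slope of Srxn1 was -0.21 per 46 h and was not called (adjusted p = 0.415).

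Gclm, the modifier subunit that raises the efficiency of glutamate-cysteine ligase, fell by 0.43 ± 0.10 over 46 h (adjusted p = 0.00171, limma). Its log2 values were 11.35, 11.73 and 12.16 (lowest, median and highest) from 36 to 58 h, against 11.77, 11.93 and 12.08 from 12 to 34 h. The array of 42 h held the highest value of the series and that of 58 h the lowest. The later array was the lower in 11 of 12 pairs, with a mean difference of -0.21 ± 0.06 (adjusted p = 0.015). The gene's 2 probe sets had different time courses. In the brighter, which represents the gene, window means stayed between 11.90 and 11.94 up to 42 h and were 11.71 and 11.52 in the last 2 windows. In the other they were 10.47, 10.33, 10.13, 9.96, 10.13 and 10.05, so the decline came before 42 h, and the step into 44 to 50 h was 0.17 ± 0.11 (adjusted p = 0.252) instead of -0.21 ± 0.09 (adjusted p = 0.0659).

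**Figure D2:**
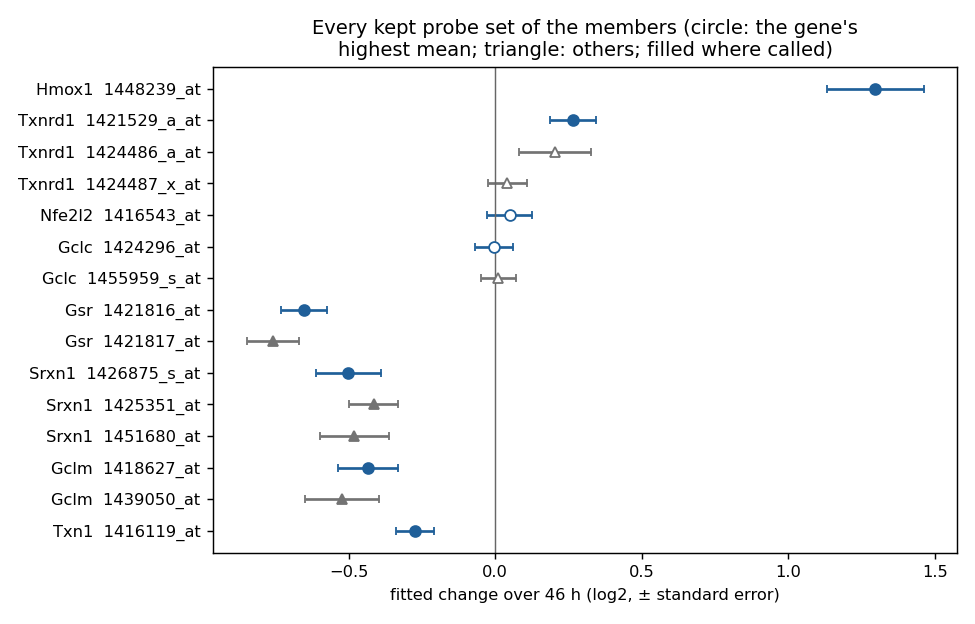
Fitted change over 46 h (x axis, log2, with standard error) of each of the 15 kept probe sets of the members. Circles are the probe set of highest mean of each gene, triangles the others, and filled symbols passed an adjusted p of 0.05. The probe sets of Gsr, Srxn1 and Gclm all lie below 0, those of Gclc lie at 0, and of the 3 of Txnrd1 the 1 used for the gene passed.

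Gclc, the catalytic subunit of the same ligase, did not pass the test, and the difference between the 2 subunits was not tested. Its change over 46 h was -0.004 ± 0.06 (adjusted p = 0.965, limma), and its second probe set gave 0.01 ± 0.06. The log2 values were 12.74, 12.91 and 13.03 (lowest, median and highest) from 36 to 58 h and 12.73, 12.90 and 13.03 from 12 to 34 h. The 2 ranges were nearly the same. The later array was the higher in 5 of 12 pairs. Of the members Gclc came nearest to a 24 h rhythm, with a first peak at 31.4 h and an amplitude of 0.08 ± 0.03 (log2, mean to peak of the fitted curve), but the adjusted p was 0.192. In its second probe set the amplitude was 0.10 ± 0.03, the first peak 32.6 h and the adjusted p 0.0592.

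Txn1, cytosolic thioredoxin, changed in a single step. The arrays of 44, 46, 48 and 50 h gave log2 values of 14.55, 14.49, 14.49 and 14.46, against 14.71, 14.73, 14.85 and 14.86 at 36, 38, 40 and 42 h. The 8 arrays from 44 to 58 h (14.45 to 14.55) all lay below the 16 arrays from 12 to 42 h (14.70 to 14.86). Txn1 was the only measured member for which these ranges did not overlap, while 8.91% of all genes had such a separation. The step into 44 to 50 h was -0.29 ± 0.04 (adjusted p = 2.65e-06, limma), or 0.82-fold. After it the level held, and the last window differed from the one before by -0.03 ± 0.04 (adjusted p = 0.899).

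Because the fall of Txn1 was a step, its linear measures depend on which arrays are compared. The change over 46 h was -0.27 ± 0.06 (adjusted p = 0.00159, limma). Without the arrays from 44 to 58 h the slope had the opposite sign, at 0.10 per 46 h, and was not called (adjusted p = 0.284). Among the 12 pairs, the later array was higher at 40 and 42 h (by 0.11 and 0.13) and lower by 0.19 to 0.30 in each of the 8 pairs from 44 h on. The array of 40 h is also the one with the lowest median of all.

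Nfe2l2 itself rose slowly and then dropped. Means of 4 arrays were 13.71, 13.79, 13.85 and 13.96 for the windows from 12 to 18 h up to 36 to 42 h, and 13.75 in both later windows. At 44, 46, 48 and 50 h its log2 value was 13.77, 13.74, 13.65 and 13.83, against 13.86, 13.91, 14.07 and 13.98 at 36, 38, 40 and 42 h. The step of -0.21 ± 0.05 was called (adjusted p = 0.0016, limma), and 12.7% of all genes fell in the same step. On the arrays up to 42 h alone Nfe2l2 had a slope of 0.45 ± 0.09 per 46 h (adjusted p = 0.00104). Over the whole course the 2 movements left a linear change of 0.05 ± 0.08 (adjusted p = 0.634), and the later array was the higher in 4 of 12 pairs, the first 4.

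**Figure D3:**
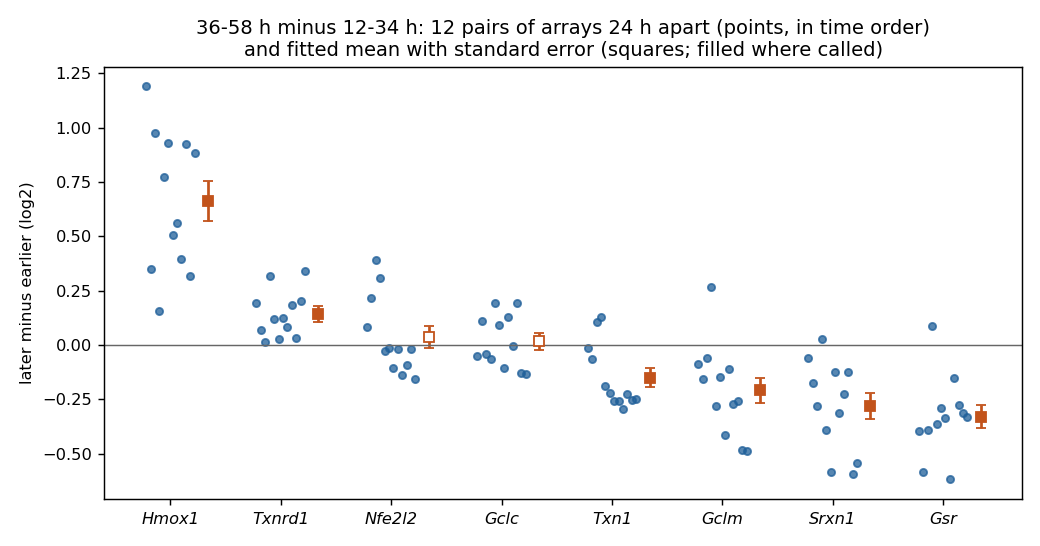
Difference between arrays 24 h apart, the array from 36 to 58 h minus that from 12 to 34 h (y axis, log2), for each measured member (x axis). The 12 points of a gene run in time order and the square is the fitted mean with its standard error, filled where the adjusted p was under 0.05. All 12 points of Hmox1 and of Txnrd1 are above 0, while the points of Txn1 and Nfe2l2 change level after the fourth pair.

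Comparing arrays 24 h apart gave the same grouping as the linear fit. Hmox1 and Txnrd1 were higher from 36 to 58 h than from 12 to 34 h, and Gsr, Srxn1, Gclm and Txn1 were lower, whereas 20.5% of all genes were higher and 12.4% lower. The members' median difference was -0.07, against 0.04 for all genes. The 2 comparisons use the same arrays and are no independent evidence of each other. With the 4 pairs that hold the arrays of 44 to 50 h left out, Hmox1 and Gsr were the 2 members still called.

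When did the members move? Between 36 to 42 h and 44 to 50 h, Hmox1 rose and Nfe2l2, Srxn1 and Txn1 fell, and 20.5% of all genes rose and 12.7% fell there, 33.3% together. The members' median step was -0.21 against 0.04 for all genes. Of the 8 hepatocyte markers 1 rose and 3 fell in this step (median -0.39), with Ttr at -0.98, Alb at -0.41 and Hnf4a at -0.39, and their part in the members' step was not tested. Gsr (-0.20, adjusted p = 0.0588) and Gclm (-0.21, adjusted p = 0.0659) missed the threshold in limma as deposited and passed it with the arrays centred on their median (adjusted p of 0.00958 and 0.0145). The second probe set of Gsr passed as deposited (-0.29, adjusted p = 0.0134), and the first did so when the array of 18, 38 or 46 h was left out (0.0151 to 0.0444). The other 4 changes from one window to the next gave no call for a member. Their background was 13.1% of genes for 20 to 26 h against 12 to 18 h, 0.122% for 28 to 34 h against the window before, 0% for 36 to 42 h (limma, smallest adjusted p 0.053, with 1276 genes at an unadjusted p under 0.05) and 0.0407% for 52 to 58 h. At an unadjusted p under 0.05, 1 member passed in the first of these (Hmox1), 0 in the second, 1 in the third (Nfe2l2) and 1 in the last (Gclm).

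No member passed the test for a 24 h rhythm (limma F test), against 2.77% of all genes. Gclc was the 1 member at an unadjusted p under 0.05, and the smallest adjusted p among the 8 was its 0.192. The fitted amplitudes of the others were 0.03 for Nfe2l2, 0.04 for Txnrd1 and Gsr, 0.05 for Gclm, 0.06 for Txn1, 0.07 for Srxn1 and 0.12 for Hmox1.

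Antioxidant response elements were searched for in the promoters, since the members are known as targets of 1 factor yet moved in different directions. The windows, 250 bases before to 50 bases after each gene's start, are RefSeq's on build GRCm38.p6, and 7 of the 10 members had at least 1 (9 windows in all). The core of the element, TGACNNNGC on either strand, was present in at least 1 window of 5 of these members, Nfe2l2, Gclm, Srxn1, Txnrd1 and Prdx1, and 12.39% of all 32851 promoter windows hold it. The members include both fallers (Gclm, Srxn1) and a riser (Txnrd1). The stretches of the 4 measured ones are shown on the gene's strand, 5′ to 3′, with the core in capitals. In all but Nfe2l2 the capitals read as the reverse complement of the core.
Nfe2l2, chr2:75704885-75704913, minus strand: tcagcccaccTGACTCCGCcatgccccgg
Gclm, chr3:122245413-122245441, plus strand: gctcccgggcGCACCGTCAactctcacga
Srxn1, chr2:152105542-152105570, plus strand: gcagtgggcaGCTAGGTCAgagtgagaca
Txnrd1, chr10:82859104-82859132, plus strand: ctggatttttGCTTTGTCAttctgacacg
The core began 240 bases before the start in Nfe2l2, 134 before it in Gclm, 92 before it in Txnrd1 (in the second of 3 windows of that gene) and at base 29 after it in Srxn1. The windows of Nqo1 and Txn1 had no match. The composite site that ATF4 forms with CHOP, searched as TGATGNAA on both strands, was in 0 of the 9 windows and in 3.97% of all windows. Hmox1, Gclc and Gsr were not searched, as the table used here gave no window for them. A match of letters is a description and shows neither binding nor its absence.

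How the members varied together is a description over the 24 arrays, which share 1 time course and its scale. The 4 fallers correlated with each other at Pearson's r of 0.66 (Gclm with Gsr) to 0.78 (Gclm with Txn1). Hmox1 ran against them, from -0.67 with Gclm to -0.82 with Gsr, and correlated with Txnrd1 at 0.57. Fallers and risers were sorted by their changes on these same arrays, so the signs of these r were largely set by the sorting. Nfe2l2 had r between -0.03 and 0.14 with Hmox1, Txnrd1, Gclc, Srxn1 and Gsr, and 0.36 with Gclm and 0.47 with Txn1. For Gclc the r of greatest size was -0.25, with Txn1.

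Among all other genes, those most like each member over the 24 arrays were the following. Gclm ran closest to Keap1 (r = 0.88) and to Immt (0.85), and Txn1 closest to Pomp (0.97), the assembly chaperone of the proteasome, and to Nudt1 (0.97), which clears oxidized nucleotides. Gsr ran closest to Bcl7c (0.94) and Igf2 (0.91), and Srxn1 to Pcyt1a and Chmp4c (both at 0.86 when rounded). Hmox1 ran closest to Tnnt2 (0.93) and Tbc1d31 (0.92), Txnrd1 to Brms1l (0.83) and Rab11fip5 (0.78), Nfe2l2 to Cstb (0.90) and Rnf181 (0.85), and Gclc to Mob4 and Elk3 (both at 0.74). The best match of Gclc was the weakest.

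Several genes that control NRF2, pair with it, compete with it or are related to it changed over the course. Of 12 measured, 6 rose over 46 h and 2 fell, against 26.3% and 16.4% of all genes (median change 0.29, against 0.07 for all genes). After quantile normalization 5 rose and 2 fell. Cul3, Maff, Btrc and Gsk3b did not pass the test. Nfe2l1, the related factor NRF1 that drives proteasome genes, rose by 1.34 ± 0.18 (adjusted p = 5.38e-06, limma), and Sqstm1, the autophagy receptor p62 that binds KEAP1, by 1.03 ± 0.14 (adjusted p = 5.49e-06). Bach1, which represses Hmox1 and competes at antioxidant response elements, rose by 0.66 ± 0.11 and Fbxw11, a ligase subunit, by 0.42 ± 0.06, while Keap1 fell by 0.64 ± 0.12 (adjusted p = 0.000163) and Dpp3, a KEAP1 binder, by 0.27 ± 0.07. Mafg (0.64 ± 0.15) and Mafk (0.35 ± 0.10) were the 2 small MAF partners that rose; they and Bach1 were singled out after their values were seen. On the arrays up to 42 h alone, 0 of the 12 were called, against 16.4% of all genes higher and 15.6% lower.

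Genes of cystine import, cysteine synthesis and glutathione breakdown mostly rose. Of 9 measured genes, 7 rose and 1 fell over 46 h, with a median change of 1.92, against 26.3% and 16.4% of all genes. Slc3a2 and Slc7a11 form the cystine importer. Slc3a2 rose by 2.21 ± 0.36 (adjusted p = 3.63e-05, limma), with means of 12.45 from 44 to 50 h and 10.64 from 36 to 42 h. Slc7a11 averaged 8.02 from 44 to 50 h but 3.62 from 36 to 42 h, which is below the value of 5 used as the filter, so the size of its rise is uncertain. It passed the filter only through the arrays from 44 h on, and without it 6 of 8 genes rose (median 1.48). Chac1, which degrades glutathione in the cytosol, averaged 11.37 and 5.74 in the same windows, a step of 5.64 ± 0.16 (adjusted p = 6.16e-17). Gss, the second enzyme of glutathione synthesis, was the 1 gene that fell, by 0.52 ± 0.11. Fitted on the arrays up to 42 h, 2 of the 9 rose and 3 fell, against 16.4% and 15.6% of all genes. Chac1 was among these fallers, with a slope of -0.86 per 46 h (adjusted p = 0.0387), and Slc3a2 was not called (-0.11, adjusted p = 0.484).

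Slc3a2, Slc7a11, Chac1 and Cth, a gene of cysteine synthesis (4.15 ± 0.80 over 46 h), also belong to the ATF4 program. The risers of the 2 lists are thus in part the same genes. The ATF4 list was drawn up with results of these data known and is no independent evidence of its direction. All 20 of its genes rose over 46 h (median 2.60), against 26.3% of all genes. All 20 rose in the step into 44 to 50 h (median 2.19), against 20.5% of all genes. On the arrays up to 42 h 3 rose and 7 fell (median -0.49), against 16.4% and 15.6% of all genes. Aldh1l2 (2.85 from 36 to 42 h) and Slc7a11 passed the filter only through the arrays from 44 h on and so had to differ, and the other 18 rose in both tests (median step 2.05). By smallest p of the linear change the leaders were Ddit4, an inhibitor of mTORC1 (1.41 ± 0.07), Sesn2, a stress-induced sestrin (1.90 ± 0.17), and Vldlr, a lipoprotein receptor (1.48 ± 0.17). Against this step, Hmox1 moved in the same direction and Srxn1, Txn1 and Nfe2l2 in the other. Up to 42 h Ddit4 (1.42), Sesn2 (1.15) and Vldlr (0.87) were the 3 genes of the list with positive slopes per 46 h that were called (limma, adjusted p of 2.6e-08, 0.000669 and 0.0142). Hmox1 also had a positive slope there, while 7 genes of the list fell.

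**Figure D4:**
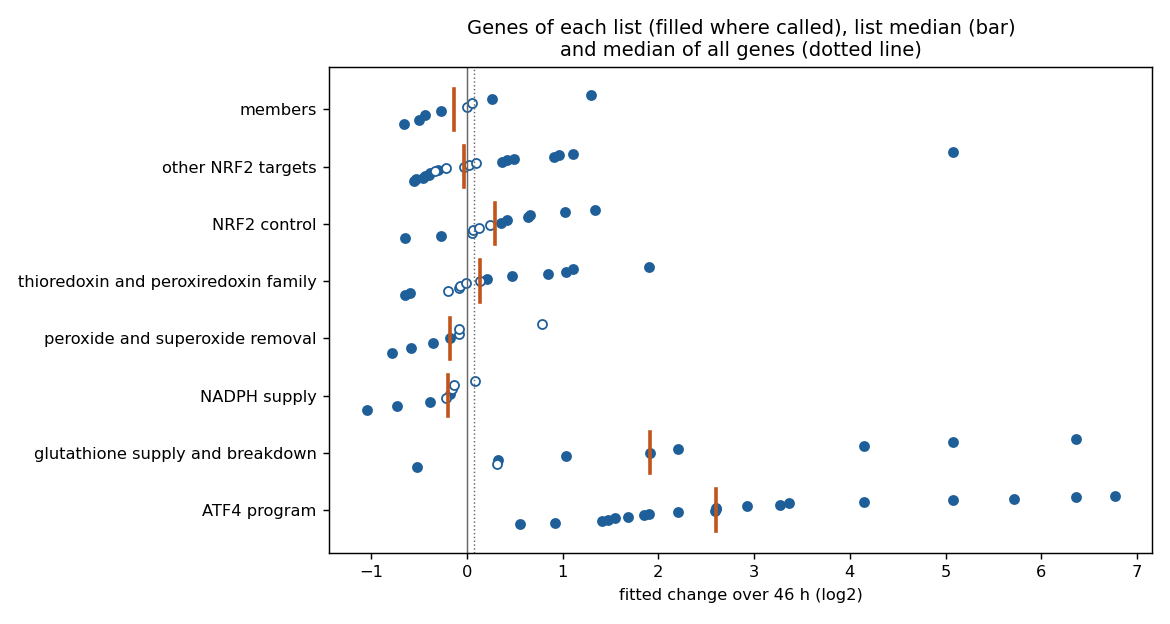
Fitted change over 46 h (x axis, log2) of each measured gene of the members and of 7 gene lists (rows). Points are genes, filled where the adjusted p was under 0.05, vertical bars are list medians and the dotted line is the median of all genes. The members lie on both sides of 0, all genes of the ATF4 program lie above it, and no filled point of the peroxide and superoxide or NADPH lists lies above it.

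The other thioredoxin and peroxiredoxin genes were mixed. Of 13 measured, 6 rose and 2 fell over 46 h (median 0.13), against 26.3% and 16.4% of all genes. With either scaling alternative 5 rose and 2 fell. Txnip, the inhibitor that binds reduced thioredoxin, rose by 1.10 ± 0.10 (adjusted p = 1.09e-08, limma). Its mean was 12.88 in the first window, 13.34 from 36 to 42 h and 13.69 from 44 to 50 h. Txn1 fell between the latter windows. On the arrays up to 42 h alone the slope of Txnip was already 1.04 per 46 h (adjusted p = 0.000158, limma). The rise of Txnip was thus under way before Txn1 fell, and a link between them was not tested. Sesn2 is on this list too. The mitochondrial reductase Txnrd2 fell by 0.64 ± 0.13 (adjusted p = 0.000461) and the glutaredoxin Glrx by 0.59 ± 0.14, and both took most of this in the step at 44 h (-0.54 and -0.57).

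A list of enzymes that remove peroxide and superoxide, and a list of NADPH supply together with the pentose phosphate pathway, included no gene called as rising over 46 h. Of 7 measured genes of the first list 4 fell over 46 h (median -0.18), and of 8 of the second 4 fell (median -0.20). Across all genes 16.4% fell and 26.3% rose. The counts of both lists were the same after centring and after quantile normalization. Catalase (Cat) fell by 0.78 ± 0.11 (adjusted p = 8.09e-06, limma), mitochondrial Sod2 by 0.58 ± 0.08, cytosolic Sod1 by 0.35 ± 0.08 and the lipid peroxidase Gpx4 by 0.18 ± 0.05. In the NADPH list, Idh1 fell by 1.05 ± 0.09 (adjusted p = 7.82e-09), Pgd by 0.73 ± 0.08, Tkt by 0.39 ± 0.08 and Taldo1 by 0.17 ± 0.05. The 3 last named belong to the pentose phosphate pathway. Pgls, Me1, Idh2 and Nnt of the same list did not pass the test over 46 h. Sod2 and Sod1 were already at 11.48 and 14.22 from 36 to 42 h, against 11.93 and 14.44 from 12 to 18 h, and their steps into 44 to 50 h were -0.07 ± 0.07 and -0.02 ± 0.08, while Idh1 (-0.49 ± 0.07) and Pgd (-0.35 ± 0.06) passed the test in it.

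Of 19 other known NRF2 targets, 7 were higher and 7 lower over 46 h (median -0.03), against 26.3% and 16.4% of all genes. Slc7a11 passed the filter only through the later arrays, and without it 6 of 18 were higher (median -0.12). After either scaling alternative 7 of the 19 were higher and 8 lower. Whether NRF2 raises or lowers each of these targets was not considered in the counts. Beside Txnip and Slc7a11, the drug exporter Abcc1 rose by 0.96 ± 0.13 (adjusted p = 3.37e-06, limma). Osgin1, an oxidative stress-induced growth inhibitor, fell by 0.55 ± 0.09 (adjusted p = 4.87e-05). Gstm1, a glutathione transferase, was the 1 gene of all these lists called in the test for a 24 h rhythm, against 2.77% of all genes. The amplitude was 0.25 ± 0.06, the first peak 14.3 h and the adjusted p 0.0491 (limma F test). Gstm1 also fell by 0.68 ± 0.12 from 36 to 42 h into 44 to 50 h, and the part of this step in the fitted rhythm was not tested. Its probe set, by the suffix of its name, is of the kind that can also bind related transcripts, so near-identical transferases may contribute to it.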

How the data were processed

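RNA of 24 samples of MMH-D3 cells was measured on Affymetrix arrays. The authors deposited a table of log2 values. Per the submitters' processing notes they come from GCRMA, which corrects background by probe sequence and normalizes the arrays together. Its version and settings are not given in the sources used here, and the log2 scale was read from the values. A change in RNA content common to all genes cannot be seen after such normalization. The lowest value, 2.17, made up 41.2% of all values.

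The 64 control probe sets were left out. For each gene the brightest probe set by mean was used. Tests were run with limma 3.58.1 in R 4.3.3 with a variance prior that follows intensity. They were the linear change over 46 h (with 24 h cosine and sine), the 24 h rhythm (F test of cosine and sine), arrays of 36 to 58 h minus those 24 h earlier (hour of day as a factor), and each 8 h window of 4 arrays minus the one before. The tests were checked on simulated data. With 1 array per time point the error is the scatter of arrays about each fit, which may be technical in part, holds any misfit of a line to a step, and treats consecutive arrays as if independent. The number of arrays limits the precision.

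The members, gene lists and windows were chosen with earlier results of these data known. Named beside the members were the 3 genes of smallest p for the linear change in each list, the genes behind counts of 5 or fewer, and the 2 genes of highest correlation with each member. Alternatives were quantile normalization, centring, no filter or a stricter one (log2 of at least 7), 1 variance prior, other fitted terms, other probe sets and arrays left out. The alternative without 40 and 42 h was chosen after seeing the data.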

Additional observations from a re-analysis of the deposited data

How the results depend on the processing

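The 6 calls of members in the linear change and in the comparison of arrays 24 h apart were the same 2 higher and 4 lower after quantile normalization and after centring, and 6 were called whichever array was left out. Leaving out the arrays from 44 to 58 h left 3 calls in the linear change. Hmox1 and Nfe2l2 were higher and Gsr lower, against 16.4% of all genes higher and 15.6% lower. It also reversed the slopes of Txn1 (0.097), Slc3a2 (-0.112), Slc7a11 (-0.407) and Chac1 (-0.86). Of these only that of Chac1 was called, and that of Slc7a11 rests on values below the filter. Leaving out the 4 pairs with 44 to 50 h left 1567 probe sets, against 5895, and 2 members called between arrays 24 h apart. Fewer arrays were compared in both, and no other cause was tested.

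Over all kept probe sets, 479 were rhythmic, against 198 with no filter, 2064 with a quadratic drift, 1602 without 44 to 58 h and 174 to 706 with 1 array left out. For 20 to 26 h minus 12 to 18 h, 2278 were called, against 1096 to 3062 with 1 array left out, and members called were 0, against 1 without 40 and 42 h and 0 to 2 with 1 array left out. For 28 to 34 h minus 20 to 26 h, 18 were called, against 34 after quantile normalization, 34 after centring, 2 with no filter, 44 without 40 and 42 h and 1 to 148 with 1 array left out. For 36 to 42 h minus 28 to 34 h, 0 were called by limma (1276 genes at an unadjusted p under 0.05), against 2 after centring, 1 with 1 variance prior and 0 to 73 with 1 array left out. For 44 to 50 h minus 36 to 42 h, 5876 were called, against 3814 without 40 and 42 h, and the 4 members called (1 higher, 3 lower) became 2 with no filter, 5 after quantile normalization (0 higher, 5 lower), 6 after centring (1 higher, 5 lower) and 2 to 5 with 1 array left out. For 52 to 58 h minus 44 to 50 h, 6 were called, against 10 with no filter, 0 with the stricter filter, 16 without 40 and 42 h and 0 to 82 with 1 array left out. The causes were not tested.

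The step of Hmox1 also lost its call after quantile normalization (adjusted p = 0.0745), with no filter (0.0609) and without 40 and 42 h (0.0623), and that of Srxn1 with no filter (0.0875) and in its dimmest probe set (0.187). Over 46 h the change of Nfe2l2, which was not called, was -0.02 after centring.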

Other observations

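Some redox genes that are no members had higher means from 36 to 42 h than from 12 to 18 h or from 44 to 50 h. They are given here as values, chosen after those values were seen. The peroxiredoxin Prdx4, which works in the endoplasmic reticulum, averaged 10.11 from 12 to 18 h, 11.83 from 36 to 42 h and 11.29 from 44 to 50 h. Extracellular Sod3 averaged 5.38, 7.43 and 6.21 in these windows, and the reductase Ptgr1 9.68, 10.95 and 10.37. The step from 36 to 42 h into 44 to 50 h was -0.54 ± 0.15 for Prdx4, -1.22 ± 0.23 for Sod3 and -0.58 ± 0.15 for Ptgr1, and each passed the test (limma, adjusted p of 0.00779, 0.000338 and 0.00595). Nfe2l2 had its highest window mean, 13.96, in the same window of 36 to 42 h, and a link to these genes was not tested.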
